A study of Mus musculus with 36 samples.

Results

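The 10 genes described here are parts of the circadian clock: Arntl (also called Bmal1), Clock, Npas2, Per1, Per2, Per3, Cry1, Nr1d1, Nr1d2 and Dbp. They were taken by gene symbol from count tables that list 21955 symbols, and all 10 were found. All 10 were also among the 13436 genes that had enough counts to be tested. The libraries come from liver of C57BL/6JN mice at 2 ages, young (4 months) and old (18 months), during regeneration. At each age there were 6 time points, labelled before, 48, 72, 96, 120 and 240, with 3 biological replicates each, which makes 12 groups and 36 libraries of ribosomal-RNA-depleted total RNA. The labels name no transgene and no drug. The labels give no unit for the time points, no clock time of tissue collection and no description of how regeneration was started. Every numeric time label is a whole multiple of 24.

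The mammalian clock is a loop of transcription. ARNTL pairs with CLOCK or with its relative NPAS2 and switches on the Per and Cry genes, whose proteins then shut that pair down. The same pair switches on Nr1d1 and Nr1d2, which encode the nuclear receptors REV-ERBα and REV-ERBβ, and these repress Arntl, Clock and Npas2. Dbp is a direct output: its protein binds a sequence called the D-box in further genes, Per3 among them. In mouse liver, the transcripts of Arntl, Clock and Npas2 peak at the opposite time of day from those of Nr1d1, Nr1d2, Dbp and Per3, while Per2 and Cry1 peak later than Nr1d1. For this reason the levels of these genes are commonly used to read the phase of a tissue sample. Per1 and Per2 also respond directly to feeding, temperature, glucocorticoids and other signals.

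The promoter stretches of 4 members hold matches to short motifs of the control elements through which this loop is known to run. The matches are of letters only, and whether these copies act in the clock was not tested. Each is the 250 bases upstream of a RefSeq transcription start on GRCm38.p6, printed 5′ to 3′ on the strand of the gene. Capitals mark the E-box CACGTG that the ARNTL and CLOCK pair is known to bind, the D-box TTATGTAA of DBP and its relatives, and AGGTCA, the core of the element bound by ROR and REV-ERB receptors. All 3 were searched on both strands, so TGACCT is the last motif read from the other strand. Per1 (chr11:69098699-69098948, plus strand) lies in an intron of the longer GENCODE gene model and holds an E-box and a receptor core. Per3 (chr4:151044666-151044915, minus strand) holds 2 D-boxes. Cry1 (chr10:85185055-85185304, minus strand) holds 1 E-box, and Nr1d2 (chr14:18239107-18239356, minus strand) holds 1 receptor core.
Per1: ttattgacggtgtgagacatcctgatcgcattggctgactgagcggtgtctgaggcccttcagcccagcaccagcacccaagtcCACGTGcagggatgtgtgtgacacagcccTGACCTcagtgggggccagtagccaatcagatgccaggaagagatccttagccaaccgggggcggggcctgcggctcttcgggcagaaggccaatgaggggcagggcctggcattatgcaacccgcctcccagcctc
Per3: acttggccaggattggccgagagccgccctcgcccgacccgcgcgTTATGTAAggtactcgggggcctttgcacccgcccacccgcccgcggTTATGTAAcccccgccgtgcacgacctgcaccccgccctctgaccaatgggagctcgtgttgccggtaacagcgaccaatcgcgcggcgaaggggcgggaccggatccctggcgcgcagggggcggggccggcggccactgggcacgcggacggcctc
Cry1: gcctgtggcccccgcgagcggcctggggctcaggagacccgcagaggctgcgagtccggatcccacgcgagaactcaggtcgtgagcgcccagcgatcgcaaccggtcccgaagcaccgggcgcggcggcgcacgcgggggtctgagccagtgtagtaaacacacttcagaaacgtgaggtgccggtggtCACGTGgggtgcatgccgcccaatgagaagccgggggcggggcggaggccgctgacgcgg
Nr1d2: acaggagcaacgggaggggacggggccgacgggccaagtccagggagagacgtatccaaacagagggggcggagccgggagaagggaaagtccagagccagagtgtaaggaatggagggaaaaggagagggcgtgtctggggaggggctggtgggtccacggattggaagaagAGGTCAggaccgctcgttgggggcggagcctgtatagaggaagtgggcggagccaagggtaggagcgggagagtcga

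In windows that add the 50 bases after each start, 9 of the 10 members had an entry, and Per2 did not. The E-box was found in 2 of those 9, Cry1 and Per1, against 8.09% of all 27025 genes with a window. The D-box was found in Per3, against 1.11% of all genes. The receptor core was found in Arntl, Clock, Per1 and Nr1d2, against 18.1% of all genes. In Arntl this match lay after the start. A match describes the letters only, and no binding was measured.

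Sequencing depth ranged from 2328233 to 6034446 counts per library, with a median of 4439170. Within each group, no library was a copy of another. Old 48 replicate 2 stood apart from its group: the chi-square of its counts over genes, per degree of freedom, was 56.7 against replicate 1 and 65.2 against replicate 3, while these differed from each other by 22.3 and no other pair of replicates exceeded 30.1. The liver identity of the tissue was checked on 5 hepatocyte transcripts, whose summed level ranged from 12752 to 22970 CPM over the 36 libraries. CPM here means the count per 1000000 of the library's scaled total. In every group, 1 of the 3 libraries had a summed level of Y-linked transcripts above 50 CPM; of the other 24 libraries, 23 held none and old 240 replicate 3 held 0.211 CPM. Below, the 24 are called the libraries without Y-linked transcripts. A term for this split, fitted to all genes, called 0 of the 10 members (8.48% of all genes tested were called), with adjusted p between 0.0936 (Nr1d1) and 0.796 (Per1).

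In young liver most of the clock genes changed at 48, and no member was called from 96 on. Of the 10 members, 8 differed from before at 48 at an adjusted p under 0.05 (22.1% of all genes tested were called). Arntl and Clock rose, and Per1, Per2, Per3, Nr1d1, Nr1d2 and Dbp fell. The median log2 change was -1.36 over the members and -0.01 over all genes. At 72, Arntl was still higher and Nr1d2 still lower, and these were the 2 members called (17.5% of all genes). At 96, 120 and 240 no member was called, where 1.44%, 0.595% and 0.26% of all genes were. At an unadjusted p under 0.05 the members counted 0, 1 and 1 at these 3 time points, and DESeq2 called 0 at each. Shares of all genes at an unadjusted p are not given, here or below. The absence of a call does not show a full return: at 96, Nr1d1 (44.1, 88.2 and 121 CPM) lay below all 3 before libraries and Per3 (177, 141 and 202 CPM) above them. At 72 the count was 4 in the 24 libraries without Y-linked transcripts and also 4 when only the groups compared were fitted. The shares of all genes called in these fits are not given here.

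In old liver 8 of the 10 clock genes changed at 48, all but Per1 and Cry1, and some members still differed from before at 72 and 96. Of all genes, 24.3% were called at 48. Arntl, Clock and Npas2 rose, and Per2, Per3, Nr1d1, Nr1d2 and Dbp fell. Without old 48 replicate 2, 7 of these 8 calls held and that of Nr1d1 was lost (log2 change -1.12, adjusted p = 0.172). At 72, 6 were called (12.6% of all genes), with Arntl and Clock higher and Per2, Per3, Nr1d2 and Dbp lower. At 96, 3 were called (6.85% of all genes), with Arntl and Clock higher and Per2 lower; a fit with the replicate number as a block called 4, adding Nr1d2. At 120 none was called by edgeR, with 4 at an unadjusted p under 0.05 and 1 (Arntl) by DESeq2, while 4.05% of all genes were called. In the 24 libraries without Y-linked transcripts, 4 were called at 120, among them Arntl higher and Per2 and Per3 lower (adjusted p = 0.0156, 0.00231 and 0.00639). This fit was added after the values were seen, and its share of all genes called is not given here. At 240 none was called, with 1 (Cry1) at an unadjusted p under 0.05 and 0 by DESeq2, and 0.141% of all genes were called.

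**Figure D1:**
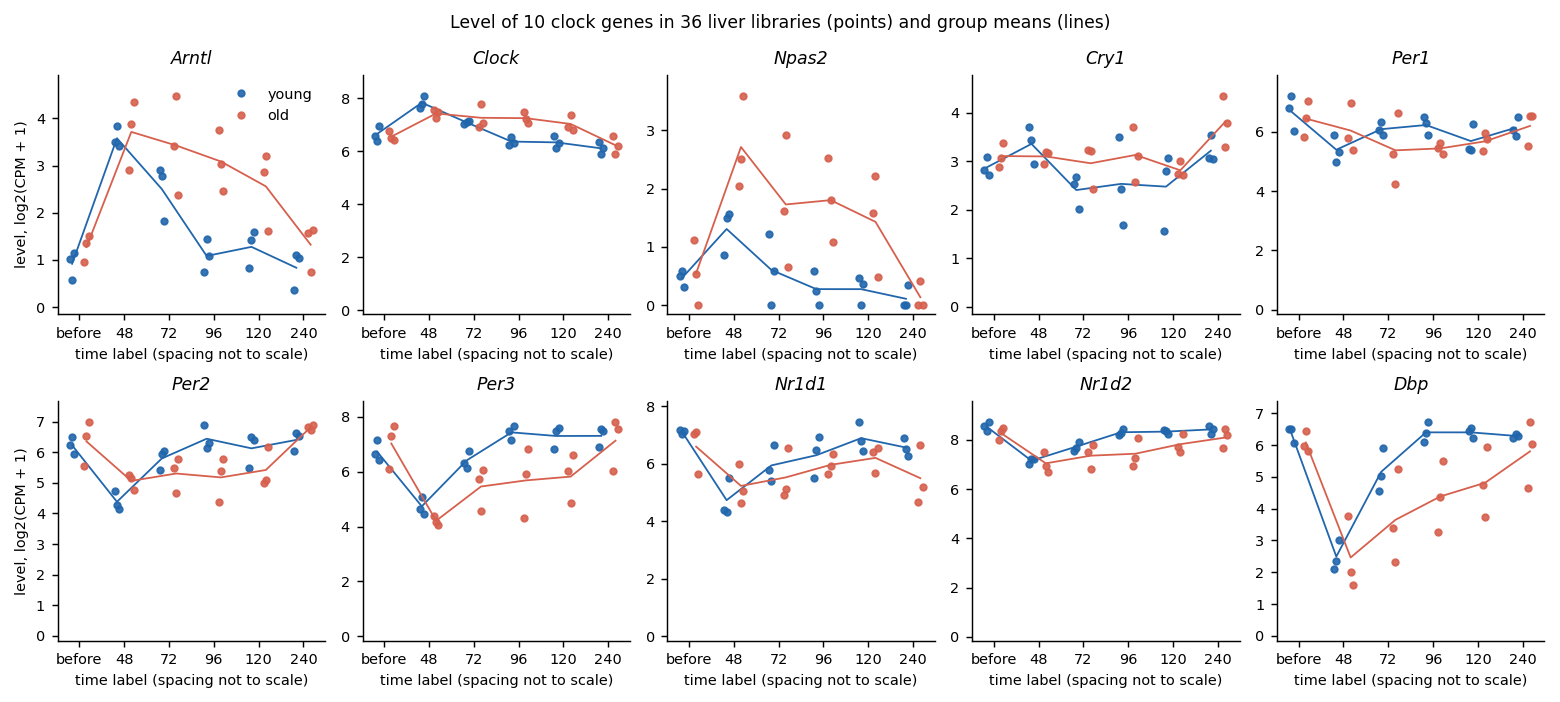
Level of each clock gene as log2(CPM + 1) in every library, by time label, with 3 points per group and a line through the group means (young blue, old red; the spacing of the time labels is not to scale). In young liver Arntl is highest and Dbp lowest at 48 and both overlap the before libraries by 96; in old liver the libraries of 72 to 120 are spread widely, with the highest Arntl of all in old 72 replicate 2.

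Arntl encodes the indispensable partner of the activating pair. In young liver it stood at 1.04, 0.497 and 1.21 CPM before and at 10.3, 13.2 and 9.61 CPM at 48. The groups did not overlap, and the log2 change was 3.53 ± 0.63 (SE, n = 3 per group, adjusted p = 0.000133). At 72 the young libraries held 6.50, 5.83 and 2.55 CPM, all above the before group, with a log2 change of 2.41 ± 0.66 (adjusted p = 0.0122). At 96, 120 and 240 every young library lay between 0.282 and 2.00 CPM. Before, Arntl rested on 2 to 5 counts per young library. The ratio of summed counts at 48 to before, 153 counts against 12, was 11.8 with a 95% interval of 6.54 to 23.3 that covers counting error only.

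In old liver Arntl began at 0.939, 1.56 and 1.83 CPM and reached 6.45, 13.8 and 19.4 CPM at 48. It was still at 9.65, 21.3 and 4.21 CPM at 72, and at 12.5, 7.24 and 4.50 CPM at 96. None of these 9 libraries fell into the range of the old before group. The log2 changes were 3.17 ± 0.58, 2.98 ± 0.58 and 2.41 ± 0.61 (adjusted p = 0.000342, 0.00126 and 0.0145). The 120 libraries, at 6.30, 8.20 and 2.05 CPM, also lay above the before group, but the change of 1.86 ± 0.62 missed the threshold (adjusted p = 0.0833). At 240 the values were 1.98, 0.681 and 2.12 CPM, which overlapped the before group.

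Clock encodes the histone acetyltransferase partner of ARNTL. In young liver it went from 95.9, 83.1 and 125 CPM to 200, 218 and 272 CPM at 48, a log2 change of 1.18 ± 0.21 (adjusted p = 0.000144) without overlap. By 96 its level was 82.2 ± 9.89 CPM (SD, n = 3). In old liver Clock rose from 93.6 ± 12.1 to 173 ± 18.7 CPM at 48, a log2 change of 0.88 ± 0.21 (adjusted p = 0.00341). It was 159 ± 55.3 CPM at 72 and 153 ± 23.5 CPM at 96, and both were called (adjusted p = 0.0168 and 0.0399).

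Npas2, the relative that can replace Clock, was near the detection limit: 21 of the 36 libraries held 3 counts or fewer and 8 held none. In old liver at 48 it reached 3.11, 4.66 and 11.05 CPM, against 1.17, 0.447 and 0 CPM before. Its summed count was 91 against 7, a ratio of 11.9 per total with a 95% interval of 5.56 to 30.5, and the change was called (adjusted p = 0.00513). In young liver at 48 it reached 0.817, 1.81 and 1.97 CPM, with 20 counts against 5 and a ratio of 3.69 (1.34 to 12.6), which was not called (adjusted p = 0.223).

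The Period genes encode the repressor proteins of the loop. Per2 stood at 74.1, 89.5 and 60.8 CPM before and at 25.3, 18.4 and 16.8 CPM at 48 in young liver, a log2 change of -1.88 ± 0.38 (adjusted p = 0.000479). In old liver it fell from 45.8, 91.4 and 125 CPM to 37.1, 34.8 and 26.4 CPM, a log2 change of -1.42 ± 0.37 (adjusted p = 0.00602). Neither pair of groups overlapped, although the old before group alone spanned 45.8 to 125 CPM. Without replicate 3 of old before, the old change at 48 was no longer called.

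Per3 is the Period gene whose promoter holds the D-boxes printed above, and it fell in both ages. In young liver it went from 99.0, 140 and 84.0 CPM to 24.2, 32.9 and 21.2 CPM at 48, a log2 change of -2.05 ± 0.50 (adjusted p = 0.0036). In old liver it went from 68.1, 157 and 201 CPM to 20.0, 17.0 and 15.7 CPM, a log2 change of -3.01 ± 0.52 (adjusted p = 0.000199). At 96 the ages stood apart, with 177, 141 and 202 CPM in young and 18.9, 59.3 and 111 CPM in old liver.

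Per1 is the Period gene best known for its response to acute signals. In young liver it fell from 110, 147 and 64.2 CPM to 58.2, 30.5 and 38.9 CPM at 48, a log2 change of -1.33 ± 0.45 (adjusted p = 0.0334). This call was lost in 6 of 44 alternative fits, among them those without young before replicate 1 or 2 or without young 48 replicate 2 or 3. In old liver at 48 it stood at 54.0, 124 and 40.7 CPM, overlapping the 55.4, 87.3 and 132 CPM of before (adjusted p = 0.614). The 8 immediate early genes listed beside it, such as Fos, Nr4a1 and Jun, are switched on within minutes by stress and handling. At 48, 8 of 8 were called lower in young (9.88% of all genes) and 4 of 8 in old liver (12.1%). Their summed level was 775 to 2339 CPM in young before and 312 to 397 CPM in young 48. Their part in the values of Per1 was not tested.

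Cry1 encodes a cryptochrome, the partner of PER in repression, and was not called in any comparison. In young liver it was 6.35 ± 0.986 CPM before and 9.47 ± 2.66 CPM at 48 (SD, n = 3). In old liver the same groups were 7.69 ± 1.53 and 7.58 ± 0.794 CPM. Its highest library was old 240 replicate 1, at 19.4 CPM, and its lowest was young 120 replicate 1, at 1.95 CPM.

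Nr1d1 and Nr1d2 encode the REV-ERB repressors that act on Arntl. Nr1d1 went from 145, 132 and 140 CPM to 20.1, 18.9 and 44.1 CPM at 48 in young liver, a log2 change of -2.33 ± 0.53 (adjusted p = 0.00164). In old liver it went from 131, 136 and 49.3 CPM to 62.7, 23.9 and 32.5 CPM. Here the groups overlapped, because old before replicate 3 held only 49.3 CPM, and the log2 change was -1.41 ± 0.51 (adjusted p = 0.0419). That call was lost in 8 of 44 alternative fits, among them those without young before replicate 3, without old before replicate 1 or 2, and without old 48 replicate 2 or 3.

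Nr1d2 fell at 48 in both ages. Its young values were 372, 324 and 419 CPM before and 128, 148 and 150 CPM at 48, a log2 change of -1.39 ± 0.26 (adjusted p = 0.000257). Its old values were 254, 327 and 355 CPM before and 182, 122 and 102 CPM at 48, a log2 change of -1.21 ± 0.26 (adjusted p = 0.00157). At 72 it was still lower in young (log2 change -0.81, adjusted p = 0.0296) and in old liver (-0.88, adjusted p = 0.025).

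Dbp, the output transcription factor, had 10 or more counts in every library, and its highest library held 51.2 times the CPM of its lowest. In young liver it fell from 90.5, 90.5 and 66.1 CPM to 3.27, 4.14 and 7.15 CPM at 48, a log2 change of -4.11 ± 0.72 (adjusted p = 0.000116). At 72 it was at 22.4, 31.4 and 59.6 CPM, and at 96 it was at 68.2, 82.1 and 105 CPM, overlapping before. In old liver it fell from 62.2, 86.0 and 55.9 CPM to 12.7, 3.04 and 2.05 CPM at 48, a log2 change of -3.54 ± 0.70 (adjusted p = 0.000686).

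The old libraries after 48 were spread widely for Dbp. At 72 they held 9.44, 3.98 and 37.1 CPM (log2 change -1.99 ± 0.63, adjusted p = 0.0361). At 96 they held 8.59, 19.9 and 44.7 CPM, at 120 they held 25.9, 12.5 and 61.2 CPM, and neither was called (adjusted p = 0.159 and 0.374). At 240 they ran from 23.97 to 105 CPM, on either side of the young values of 74.6 to 80.1 CPM. When the 12 group means of Dbp were put in order, from 85.02 CPM in young 96 to 4.85 CPM in young 48, all 11 neighbouring groups overlapped. For Arntl, from 13.2 CPM in old 48 to 0.830 CPM in young 240, 10 of 11 neighbouring pairs overlapped, and the gap lay between young 72 and old 240.

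**Figure D2:**
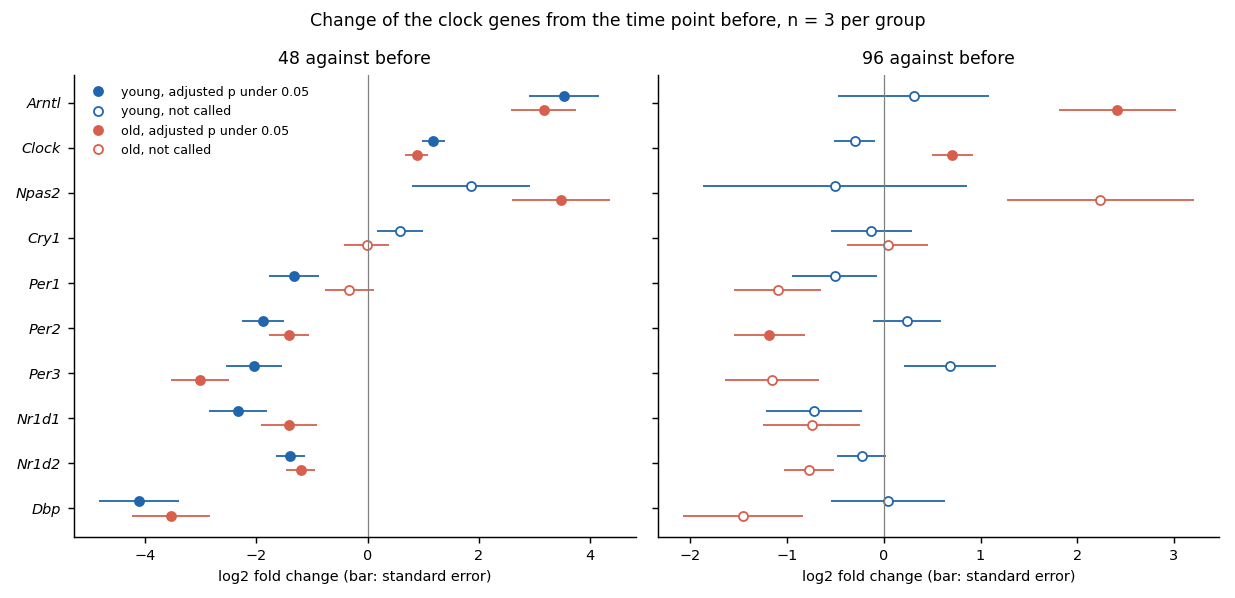
Log2 fold change from before for each member at 48 (left) and at 96 (right), with the standard error as a bar; filled points passed an adjusted p of 0.05 and open points did not (young blue, old red, n = 3 per group). At 48 the ages lie close together for Arntl, Clock, Nr1d2 and Dbp, and at 96 the young points sit nearer to 0 than the old points for Arntl, Clock, Per2 and Dbp.

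The called changes of 48 held unevenly when single libraries were left out or the groups were fitted apart. In young liver, the calls of Arntl, Clock, Per2, Per3, Nr1d1, Nr1d2 and Dbp at 48 held in all 44 alternative fits. In old liver, those of Arntl, Per3 and Dbp at 48 did so. When each old time point was fitted alone with its before group, 3 members were called at 48, 1 at 72 and 1 at 96. The shares of all genes called in these fits, and in those that leave out a library, are not given here. Leaving out old before replicate 2 or replicate 3 reduced the 17 calls over the 5 old comparisons to 8 in each case.

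At the later time points single libraries decided several of the calls. In young liver at 72, Arntl lost its call without before replicate 2 or 72 replicate 1, and Nr1d2 without before replicate 1 or 3 or 72 replicate 1 or 2. In old liver at 72, Arntl kept its call in all 44 alternatives. There, Per3, Nr1d2 and Dbp lost theirs without before replicate 2 or 3 or 72 replicate 1 or 2, and Clock without before replicate 2 or 3 or 72 replicate 2. Per2 lost its call at 72 without any 1 of 6 libraries: young before replicate 3, old before replicates 2 and 3, old 72 replicates 1 and 2, and old 96 replicate 2. In old liver at 96, Arntl lost its call without before replicate 2 or 3 or 96 replicate 1, and Clock without these or 96 replicate 2. Per2 at 96 lost its call without any 1 of 24 libraries. Without 1 library at a time, the members called ran from 0 to 2 in young 72, 1 to 8 in old 72, 0 to 5 in old 96 and 0 to 2 in old 120.

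Over the 5 comparisons with before, 10 of 50 member tests were called in young (8.38% of all tests) and 17 of 50 in old liver (9.6%). A test over all 6 time points at once called 7 members in each age. In young these were Arntl, Clock, Per2, Per3, Nr1d1, Nr1d2 and Dbp (21.5% of all genes called), and in old they were the same set with Npas2 in place of Nr1d1 (20.6%). Nr1d1 in young was lost without young 48 replicate 1 or 2.

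To put the balance of the activator genes and the genes opposite to them into one value per library, an antiphase index was formed. It was the mean log2(CPM + 1) of Arntl, Clock and Npas2 minus that of Dbp, Nr1d1, Nr1d2 and Per3. The index does not separate a shift of phase from a change in level or amplitude. A higher value means more of the activator side. It has no p, since its genes were chosen with their values known. In young liver its mean was -4.51 ± 0.24 before, -0.54 ± 0.16 at 48 and -2.91 ± 0.66 at 72 (SD, n = 3). At 96, 120 and 240 the young means were -4.53, -4.60 and -4.79, and each of these groups overlapped before.

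In old liver the index was -4.20 ± 0.34 before, -0.12 ± 1.04 at 48 and -1.36 ± 1.71 at 72. It was then -1.82 ± 1.35 at 96, -2.49 ± 1.34 at 120 and -4.07 ± 1.00 at 240. Within a group the old libraries could lie far apart: at 72 they stood at -1.40, 0.37 and -3.05. The 3 young libraries at 48 stood between -0.70 and -0.38. The libraries with Y-linked transcripts had the lowest index of their group in 6 of the 12 groups and the highest in 3.

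**Figure D3:**
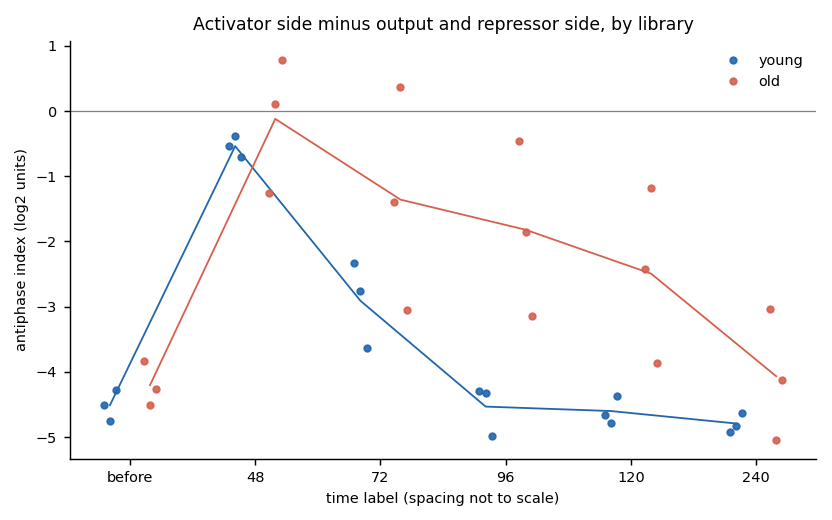
Antiphase index of every library, in log2 units, by time label, with lines through the group means (young blue, old red; spacing of the time labels not to scale). The young libraries at 96 and 120 lie between -4.98 and -4.29, and the old libraries at these labels lie between -3.87 and -0.46.

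The direct comparison of the ages gave few calls. Before, 0 of 10 members differed between old and young liver (0.0595% of all genes were called), with 0 at an unadjusted p under 0.05. At 48 none was called either, with 1 (Npas2) at an unadjusted p under 0.05, although 11.4% of all genes were called. None was called at 72 (0.0% of all genes), at 120 (0.0819%) or at 240 (0.0149%); the counts at an unadjusted p under 0.05 were 2, 5 and 0. DESeq2 called none at these 5 time points.

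At 96, Arntl was higher in old liver by 2.74 ± 0.62 on the log2 scale (8.06 ± 4.04 against 1.16 ± 0.522 CPM; adjusted p = 0.0485), and it was the 1 member called (0.402% of all genes). The call was lost in 20 of 44 alternative fits, over which the adjusted p ran from 0.0042 to 0.257. Leaving out any 1 of the 3 young libraries at 96, or old 96 replicate 1 or 2, was enough to lose it. Clock followed at 0.89 ± 0.21 (153 ± 23.5 against 82.2 ± 9.89 CPM; adjusted p = 0.0509), which passed in 15 of 44 alternatives.

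Most of the other members were also apart at 96, without passing the test. For 8 of the 10, all but Cry1 and Nr1d1, the 3 old libraries did not overlap the 3 young ones, as was so for 20.6% of all genes. At 7 members the unadjusted p was under 0.05, and the share of all genes at that threshold is not given here. The log2 differences, old minus young, were -1.77 ± 0.62 for Dbp, -1.44 ± 0.49 for Per3, -1.19 ± 0.36 for Per2 and -0.79 ± 0.26 for Nr1d2, at adjusted p between 0.121 and 0.184. The antiphase index of old liver exceeded that of young by 2.71 at 96 and by 2.11 at 120, without overlap, and by 0.31 before, with overlap. The index is formed from these same members, so it is no separate evidence.

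Averaged over the 6 time points, Arntl was higher in old liver by 1.28 ± 0.26 (adjusted p = 0.00302), a call that held in all 43 alternative fits. Per3 was lower by -0.64 ± 0.20 (adjusted p = 0.0494) and Nr1d2 by -0.37 ± 0.11 (adjusted p = 0.0322), and these 2 calls were lost in 31 and in 12 of 43 alternatives. In all, 6.13% of genes were called. The test of whether the change from before differs between the ages called 1 member, Clock (adjusted p = 0.043; 2.91% of all genes). Its old change exceeded its young change by 1.01 at 96 and 0.82 at 120 on the log2 scale, and was smaller by -0.30 at 48. For Arntl the same test gave an adjusted p of 0.389, so that its age difference at 96 was not shown to depend on time.

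Arntl and Dbp traced one line through the libraries. Over the 36 libraries, the Pearson correlation of their log2(CPM + 1) values was -0.938 and Spearman's rho was -0.907; without the 2 libraries of lowest Dbp, old 48 replicates 2 and 3, r was -0.927. The libraries share groups, so this is a description. After subtraction of the group means r was -0.843. The groups were also split into low and high by their level of Dbp itself. Within the 18 low libraries, those of young 48 and 72 and old 48 to 120, r was -0.936. Within the other 18 it was -0.394, and there Arntl was low throughout, at 0.282 to 2.12 CPM. Of 13435 other genes, Arntl had the most negative correlation with Dbp.

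**Figure D4:**
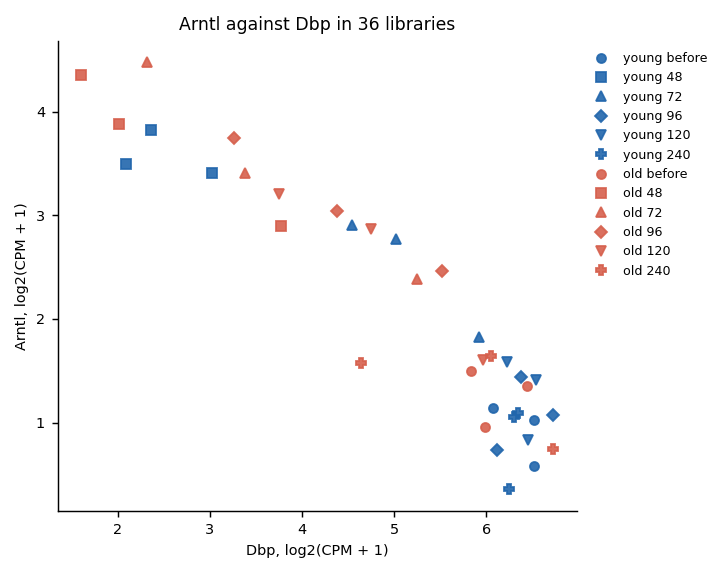
Arntl against Dbp in 36 libraries, both as log2(CPM + 1), with colour for age (young blue, old red) and shape for time label. The libraries form one falling line (r = -0.938), with young 48 and old 48 at its upper left end, the old libraries of 72 to 120 along its length and the before libraries at its lower right end.

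The 5 genes most like Dbp over the libraries were Nr1d2 (r = 0.951), Tef (0.928), Per3 (0.925), Narf (0.922) and Ppargc1b (0.893). Tef encodes a close relative of DBP, and Ppargc1b a transcriptional coactivator. Those most like Arntl were Lrfn3 (0.911), Desi2 (0.884), St5 (0.878), Loxl4 (0.875) and Chka (0.875). Clock ranked the 12th and Npas2 the 32nd by likeness to Arntl. Cry1 (r = -0.330 with Dbp) and Per1 (0.467) lay apart from the other members.

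A second axis, the log2 ratio of Per2 to Nr1d1, separated libraries that the antiphase index placed together; it was added after the values had been seen. In the 18 libraries of young before, 96, 120 and 240 and of old before and 240, the antiphase index ran from -5.04 to -3.03, while this ratio ran from -1.96 to 2.16. Nr1d1 and Per2 peak at different times in the liver day, Nr1d1 first. Old before replicate 3 had 49.3 CPM of Nr1d1 with 125 CPM of Per2. Replicates 1 and 3 of old 240 were alike in this, with 24.6 and 35.3 CPM of Nr1d1 and 113 and 117 CPM of Per2. So was young 96 replicate 1, with 44.1 CPM of Nr1d1 and 117 CPM of Per2.

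At the other end, young 120 replicate 1 had 174 CPM of Nr1d1 with 44.0 CPM of Per2. Old before replicate 1 had 131 CPM with 45.8 CPM, and young before replicate 3 had 140 CPM with 60.8 CPM. Both ends of this axis thus held libraries of both ages. The group means of the ratio were -0.90 ± 0.32 in young before and -0.25 ± 1.44 in old before (SD, n = 3). They were -0.17 ± 0.61 in young 240 and 1.32 ± 1.09 in old 240. The 3 old before libraries, from -1.50 to 1.33, are the reference of every old comparison above. The labels give no collection time, so that between groups time of day and time point cannot be told apart. Within a group the libraries share a time label, and the source of their spread was not tested.

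**Figure D5:**
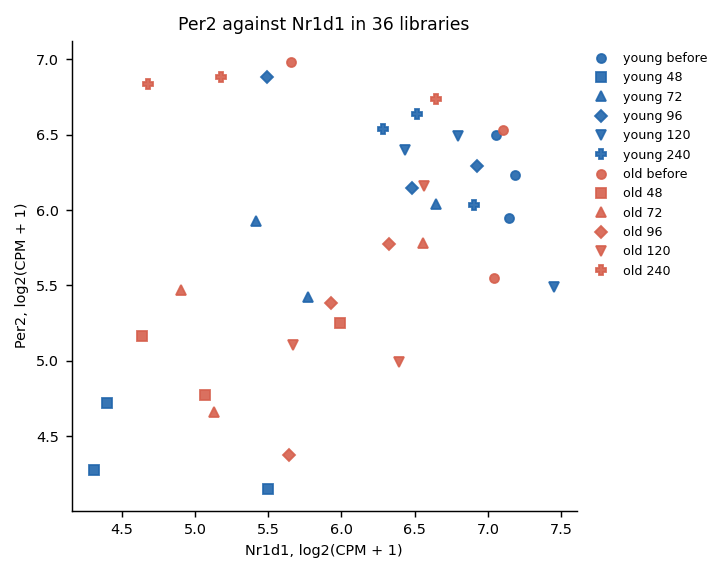
Per2 against Nr1d1 in 36 libraries, both as log2(CPM + 1), with colour for age (young blue, old red) and shape for time label. Among libraries with high Per2, Nr1d1 runs from 24.6 CPM (old 240 replicate 1) upward, and the 3 old before libraries do not lie together.

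Of 16 other clock factors listed from the same network, 8 were called in young liver at 48, 2 higher and 6 lower, where 22.1% of all genes were called. The median log2 change of the list was -0.56, against -0.01 over all genes. Bhlhe40, which encodes a repressor of the activating pair, fell by 1.82 on the log2 scale (446 ± 63.0 to 126 ± 31.6 CPM, adjusted p = 4.49e-05). Cry2, the second cryptochrome, fell by 1.51 (adjusted p = 0.000102), and Ciart, a repressor of the ARNTL and CLOCK pair, fell by 4.17 (adjusted p = 0.000223). Timeless rose by 2.41 (adjusted p = 1.24e-06); in mammals its product is known mainly for work at the replication fork.

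In old liver at 48, 11 of 16 were called, 3 higher and 8 lower (24.3% of all genes), with a median log2 change of -0.72 against 0.01 over all genes. Bhlhe40 fell by 1.65 and Tef by 1.46, and Hlf, the third relative of DBP, fell by 1.21 (adjusted p = 0.000261, 0.00149 and 0.000558). At 96, 0 of 16 were called in young (1.44% of all genes) and 5 of 16 in old liver (6.85%), 1 higher and 4 lower. Ciart was lower in old than in young liver at 96, at 3.94 ± 1.11 against 32.8 ± 10.7 CPM (log2 difference -3.01 ± 0.70, adjusted p = 0.0485), and it was the 1 gene of this list called there.

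Among 10 genes known as rhythmic outputs of the liver clock, 4 were called at 48 in each age, 3 lower and 1 higher in young (22.1% of all genes called) and 4 lower in old liver (24.3%). The 1 that rose in young liver was Lonrf3, at 60.5 ± 11.9 against 16.6 ± 2.60 CPM (adjusted p = 0.00685); it was chosen after its values were seen. Upp2, uridine phosphorylase, went from 1306 to 106 CPM in young and from 1088 to 13.1 CPM in old liver (adjusted p = 0.000208 and 3.7e-06). Rgs16, a regulator of G-protein signalling, was at 708 ± 196 CPM before and at 0.586 ± 0.164 CPM at 48 in young liver. In old liver at 48 it was at 44.0 ± 15.3 CPM, higher than in young (adjusted p = 0.00619). Wee1, a kinase that holds back mitosis, was lower in old than in young liver at 48 (8.13 ± 4.44 against 35.6 ± 13.3 CPM, adjusted p = 0.000452). At 96, 0 of the 10 were called in young (1.44% of all genes) and 2, Upp2 and Rgs16, in old liver (6.85%).

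Of 5 transcripts of dividing cells, 5 were called higher than before in young liver at 48 and 72 and 0 at 96 and 120. In old liver 3 were called higher at 48, 5 at 72, 5 at 96 and 3 at 120, where no clock member was called. Of all genes, 12.2%, 9.26%, 0.685% and 0.223% were called higher in young liver at 48, 72, 96 and 120. In old liver these shares were 12.3%, 6.71%, 3.77% and 1.96%. The summed level of Mki67, Top2a, Ccnb1, Cdk1 and Mcm2 was 40.4 to 64.9 CPM in young before, 1729 to 3350 CPM in young 48 and 205 to 447 CPM in young 96. In old liver it was 39.5 to 101 CPM before, 29.2 to 675 CPM at 48, 735 to 1605 CPM at 72 and 339 to 1319 CPM at 96. At 120 in old liver it was 436 to 731 CPM. Their part in the clock values was not tested.

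Markers of liver cell types were compared over the same groups at 48, where 22.1% of all genes were called in young and 24.3% in old liver. The 5 hepatocyte markers gave 0 calls in young and 3 lower calls in old liver (Alb, Ttr and Cps1). Of 4 endothelial markers, Kdr and Pecam1 were lower in young and Kdr in old liver, with summed levels of 170 to 234 CPM in young 48 against 284 to 324 CPM before. Of 4 macrophage markers none was called in young and Adgre1 was lower in old liver, where their sum ran from 77.6 to 544 CPM at 48. Col1a1, of 4 stellate and fibroblast markers, was higher in old liver. S100a9, a neutrophil marker, was higher in young liver but near the detection limit, at 1.82 ± 0.970 against 0.164 ± 0.142 CPM before (SD, n = 3). Of the lymphocyte markers only Ms4a1 had enough counts to test, and it was lower in old liver. In bulk tissue, fewer cells of a type and less RNA per cell cannot be told apart, and the part of these shifts in the clock values was not tested.

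The position of 3 members limits how their reads can be assigned. On GRCm38 (GENCODE M21 gene models), Dbp (chr7:45705088-45710203) shares 539 exonic bases, 18.0% of its exonic length, with Sphk2 on the opposite strand. Nr1d1 (chr11:98767932-98775333) shares 263 bases, 8.55%, with Thra, and Arntl (chr7:113207465-113314126) shares 33 bases with the antisense gene Gm45355. Whether the counting used strand is not given in the sources used here. In young liver at 48 Sphk2 was at 58.5 ± 5.51 CPM against 63.0 ± 11.1 CPM before (adjusted p = 0.762), and Thra was at 6.07 ± 0.600 against 8.25 ± 1.34 CPM (adjusted p = 0.217). Neither was called in old liver at 48 (adjusted p = 0.366 and 0.356).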

How the data were processed

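The authors deposited 1 table per library with a whole-number count for each gene symbol. Per the submitters' processing notes, the tools used include Trimmomatic 0.39, STAR 2.7.5b and featureCounts, on GRCm38 (mm10). The counting options and strand setting are not given in the sources used here. Per the labels' protocols, RNA from young livers was spiked with ERCC mix 1 and that from old livers with mix 2; the tables hold 0 ERCC entries.

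All 36 libraries were fitted together in R 4.3.3 with edgeR 4.0.16 (TMM scaling, filterByExpr, quasi-likelihood F test, 1 mean per group). P-values were adjusted by Benjamini-Hochberg over the 13436 genes tested, and called means an adjusted p under 0.05. CPM uses TMM-scaled totals, and log2 levels use a pseudocount of 1. The members and lists were chosen with earlier results of these data known. Named list genes are at most the 4 of smallest p per comparison. Promoters are those of most motif matches, ties going to the match nearest upstream of the start. The fit was tested on simulated data. A floor of 3 counts was used for low levels. Intervals and floors cover counting error only.

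Alternatives were total-count and median-of-ratios scaling, no filter, DESeq2 1.42.0, a separate fit per comparison on its own groups, a replicate block, a term for Y-linked transcripts, other pseudocounts of 0.1 and 5, and leaving out each library. Fits of the 24 libraries without Y-linked transcripts were added after seeing the data. The labels do not say that replicate numbers pair libraries. Same-numbered libraries had a mean correlation of 0.102 over the 10 comparisons with before and 0.0623 between ages, and every pair was over 0.1 in 4 of 10 and 2 of 6 comparisons, old 96 among the former.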

Additional observations from a re-analysis of the deposited data

Results flagged for a closer look

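Clock was the 1 member whose change from before differed between the ages in a test of the difference itself (edgeR quasi-likelihood F test of 5 contrasts, adjusted p = 0.043). Its old change exceeded its young change in log2 units by 0.34 at 72, 1.01 at 96, 0.82 at 120 and 0.25 at 240, and was below it at 48 (-0.30). The call was lost in 23 of 43 alternatives, with adjusted p between 0.00362 and 0.12. It was not called with the replicate block, nor in the 24 libraries without Y-linked transcripts, nor without any 1 of 21 of the libraries, among them each library of young 48 and young 96.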

How the results depend on the processing

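No signed difference of a single member with an unadjusted p under 0.05 changed direction under any alternative run; the tests over several time points have no direction. The 17 calls in old liver against before became 5 when only the groups compared were fitted, and the 7 members called over time in old liver became 4. The 1 call of old against young by time point became 2 with total-count scaling, with DESeq2 and with a term for Y-linked transcripts, 4 in the 24 libraries without those transcripts and 0 when only the groups compared were fitted. With the replicate block it became 2, adding Clock at 96, and the 1 interaction call became 0. The block also lost Nr1d1 in old 48 and added Nr1d2 in old 96; it changed no other call of a member. With DESeq2 the interaction calls became 2, and in the 24 libraries 0. With a pseudocount of 5 the index of old 48 minus before was 3.06 in place of 4.08. The smaller fits hold fewer libraries, and the causes of these shifts were not tested. The shares of all genes called in the alternative fits are not given here.

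Leaving out 1 library gave 8 to 10 calls against before in young and 8 to 19 in old, 0 to 3 between ages by time point, 1 to 4 averaged over time, and 0 to 2 interaction calls. It gave 6 to 8 members over time in young and 7 to 8 in old. The index difference from before ran, in young, from 3.85 to 4.09 at 48, 1.31 to 1.96 at 72, -0.14 to 0.20 at 96, -0.21 to 0.03 at 120 and -0.40 to -0.16 at 240. In old it ran from 3.63 to 4.65, 1.98 to 3.69, 1.70 to 3.05, 1.06 to 2.40 and -0.38 to 0.62 at these times. Depth limits Npas2, and Arntl in the groups where it is low.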

Other observations

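Of 11 genes listed as following feeding and fasting, 6 were called in young liver at 48, all lower (22.1% of all genes were called), and 5 in old liver (24.3%), 3 lower and 2, Angptl4 and Fgf21, higher. Thrsp, a lipogenic gene of the fed liver, went from 1491 to 52.7 CPM in young and from 1694 to 16.1 CPM in old liver (edgeR adjusted p = 1.23e-05 and 2.6e-06). Srebf1, the lipogenic regulator, went from 578 to 195 CPM in young and from 662 to 69.9 CPM in old liver (adjusted p = 0.000421 and 6.02e-07). Ppp1r3g, a glycogen-targeting subunit of a phosphatase, was called lower than before at all 5 later time points in both ages, 96, 120 and 240 in young liver included, where no clock member was called.

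Of 8 temperature and heat shock genes with enough counts, 2 were called at 48 in each age, both higher, a share near that of all genes. The median log2 change of the list at 48 was 0.01 in young and 0.24 in old liver. Hsp90aa1, a heat shock chaperone, was called higher at 48 and 72 in both ages and at 96 in old liver. Rbm3, a cold-inducible RNA-binding protein, was called higher than before at all 5 later time points in both ages. It was at 11.9 ± 0.301 CPM before and 28.2 ± 4.88 CPM at 48 in young liver (SD, n = 3), and at 10.3 ± 0.800 and 27.1 ± 2.76 CPM in old liver. Of 9 glucocorticoid targets, 3 were called in young liver at 48 (Mt2 higher, Dusp1 and Tat lower) and 4 in old liver (Fkbp5, Sgk1 and Mt2 higher, Dusp1 lower). Of all genes, 22.1% were called in young and 24.3% in old liver at 48. Sgk1 was higher in old than in young liver at 48 (180 ± 5.80 against 79.2 ± 15.7 CPM, adjusted p = 0.00436).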
